A study of Mus musculus with 15 samples.

Results

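Of the 22180 genes named in the array data, 9 were taken as the cell cycle inhibitors and the retinoblastoma family: the Cip/Kip inhibitors Cdkn1a, Cdkn1b and Cdkn1c, the INK4 inhibitors Cdkn2b, Cdkn2c and Cdkn2d, and the pocket proteins Rb1, Rbl1 and Rbl2. They were chosen by gene symbol among probe sets (groups of array probes for 1 transcript) that carry exactly 1 symbol, and 9 of 9 were found. Each has 1 such probe set except Rb1, which has 2, and their mean was used.

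Cyclin-dependent kinases drive a cell from growth into DNA synthesis and then into mitosis. INK4 proteins block Cdk4 and Cdk6, and Cip/Kip proteins bind a wider range of cyclin and kinase complexes. Kinase activity is relayed through the pocket proteins, which hold E2F transcription factors in check until they are phosphorylated. Rbl2 is typical of resting cells, where it joins E2f4 and the MuvB core in the DREAM repressor complex, and Rbl1 is itself an E2F target that appears as cells enter the cycle. In the artery wall these genes are known from studies of injury, after which medial smooth muscle cells leave their resting state.

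The arrays measured carotid arteries of female C57Bl/6J mice aged 21 to 22 weeks, 5 days after the left common carotid artery was tied off. There were 3 arrays of Has3-deficient ligated arteries, 4 of Has3-deficient non-ligated arteries, 4 of wildtype ligated arteries and 4 of wildtype non-ligated arteries. Has3 encodes hyaluronan synthase 3, which makes the matrix polymer hyaluronan. The labels do not say how the gene was inactivated, in which cells, or whether arrays stand for separate animals, and the p-values below therefore describe array-to-array spread, part of which may be technical.

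Values are log2 units relative to the median of the probe set over the 15 arrays, so the middle array of a gene with 1 probe set stands at 0 (Rb1, a mean of 2, has none at exactly 0), and levels cannot be compared between genes. The Has3 probe set lay between -0.23 and 0.10 in Has3-deficient ligated arteries, against -0.084 to 0.58 in wildtype ligated arteries. In non-ligated arteries it lay between -0.083 and 0.41 in Has3-deficient mice, against -0.075 to 0.22 in wildtype mice. It passed in neither genotype comparison, so it does not check the genotype labels, which are used as given. Some non-ligated arrays stood high in markers of neurons and chromaffin cells or of fat. Whether neighbouring tissue was the source was not tested. The mean over 10 neuron and chromaffin markers was above 1 in Has3-deficient non-ligated arrays 1, 3 and 4 (1.11, 4.27 and 1.72) and in wildtype non-ligated array 2 (2.39). The mean over 9 fat markers was above 1 in Has3-deficient non-ligated array 4 (1.78) and wildtype non-ligated array 1 (1.62).

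The promoters of the members with the largest changes are shown because the regulators described below are known to act on such sequences. They are RefSeq windows on GRCm38.p6, each from 250 bases before to 50 bases after an annotated start. Windows were listed for 7 of 9 members, not for Cdkn1c and Rb1. Capitals mark a match on either strand. The motifs searched were a p53 site, an E2F motif (TTTCCCGC, TTTCGCGC, TTTGCCGC or TTTGGCGC), and several short elements. These were the CHR element, searched as TTTGAA and also with TTCGAA, and the FoxO motif, which reads GTAAACA. The GC box was read as GGGCGG, the CCAAT box by its name, the TATA box as TATAAA and the E box as CACGTG. No overlap between matches was removed.
Cdkn1a, upstream start, chr17:29090729-29091028 on the plus strand: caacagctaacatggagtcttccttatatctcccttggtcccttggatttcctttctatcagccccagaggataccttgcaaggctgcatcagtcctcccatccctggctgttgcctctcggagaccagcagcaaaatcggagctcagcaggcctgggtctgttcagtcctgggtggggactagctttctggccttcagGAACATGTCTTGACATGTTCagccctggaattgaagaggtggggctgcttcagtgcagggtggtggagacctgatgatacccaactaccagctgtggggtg
Cdkn1a, downstream start, chr17:29093519-29093818 on the plus strand: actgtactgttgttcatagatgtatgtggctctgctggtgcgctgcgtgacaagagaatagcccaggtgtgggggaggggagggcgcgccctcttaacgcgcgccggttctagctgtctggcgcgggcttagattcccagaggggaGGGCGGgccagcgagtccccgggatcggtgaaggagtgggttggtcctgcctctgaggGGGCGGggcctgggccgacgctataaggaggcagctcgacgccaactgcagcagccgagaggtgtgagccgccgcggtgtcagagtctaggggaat
Rbl1, chr2:157204485-157204784 on the minus strand: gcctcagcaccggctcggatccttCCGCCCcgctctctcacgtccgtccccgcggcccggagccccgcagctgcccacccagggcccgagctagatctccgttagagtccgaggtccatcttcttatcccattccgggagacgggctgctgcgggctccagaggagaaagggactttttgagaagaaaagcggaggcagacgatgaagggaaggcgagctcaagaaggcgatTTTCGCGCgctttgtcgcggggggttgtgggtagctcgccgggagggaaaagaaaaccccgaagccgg
Rbl2, chr8:91069807-91070106 on the plus strand: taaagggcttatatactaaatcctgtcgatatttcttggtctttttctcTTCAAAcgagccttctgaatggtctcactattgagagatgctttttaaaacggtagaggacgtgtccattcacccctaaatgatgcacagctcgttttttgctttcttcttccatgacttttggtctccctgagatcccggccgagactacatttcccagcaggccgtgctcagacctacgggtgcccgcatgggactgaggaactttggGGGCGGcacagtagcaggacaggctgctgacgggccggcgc

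The upstream Cdkn1a window holds a run of 20 bases that matches a pair of adjacent p53 decamers with at most 1 mismatch, and 0.0883% of 32851 promoter windows hold such a run. The downstream Cdkn1a window holds 2 GC boxes, which 35.7% of windows share. The Rbl1 window holds an E2F motif whose first base lies 18 bases before the start. No other member window holds one, and 2.26% of all windows do. The Rbl2 window holds a CHR element, as does that of Cdkn2b, and 19.2% of all windows do. No member window holds the FoxO motif (3.65% of windows) or the TATA box (13.6%). These matches describe letters in a window and show nothing about binding, which was not measured.

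In wildtype arteries ligation was followed by opposite changes within the Cip/Kip and the pocket protein families. Cdkn1a, the inhibitor known best as a p53 target, and the pocket protein Rbl1 were higher in ligated arteries of both genotypes. Rbl2, the pocket protein of resting cells, and Cdkn1c, an imprinted inhibitor of the Cip/Kip family, were lower in ligated wildtype arteries. The INK4 inhibitors Cdkn2b, Cdkn2c and Cdkn2d and the pocket protein Rb1 did not pass in either genotype. Cdkn2a was not among the members and was not looked at. In Has3-deficient arteries 2 of 9 members passed, both higher, where 18.3% of all genes passed, 10.2% higher and 8.08% lower. In wildtype arteries 4 of 9 passed, 2 higher and 2 lower, where 27.8% of all genes passed, 13.2% higher and 14.6% lower. Passing means that limma gave p under 0.05 after Benjamini-Hochberg adjustment across the whole table. The median change of the 9 members was 0.098 log2 units in Has3-deficient and -0.086 in wildtype arteries, beside -0.030 in Has3-deficient and 0.0055 in wildtype arteries over all genes. The sample is a whole artery, in which fewer cells of a type and less RNA per cell cannot be told apart.

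**Figure D1:**
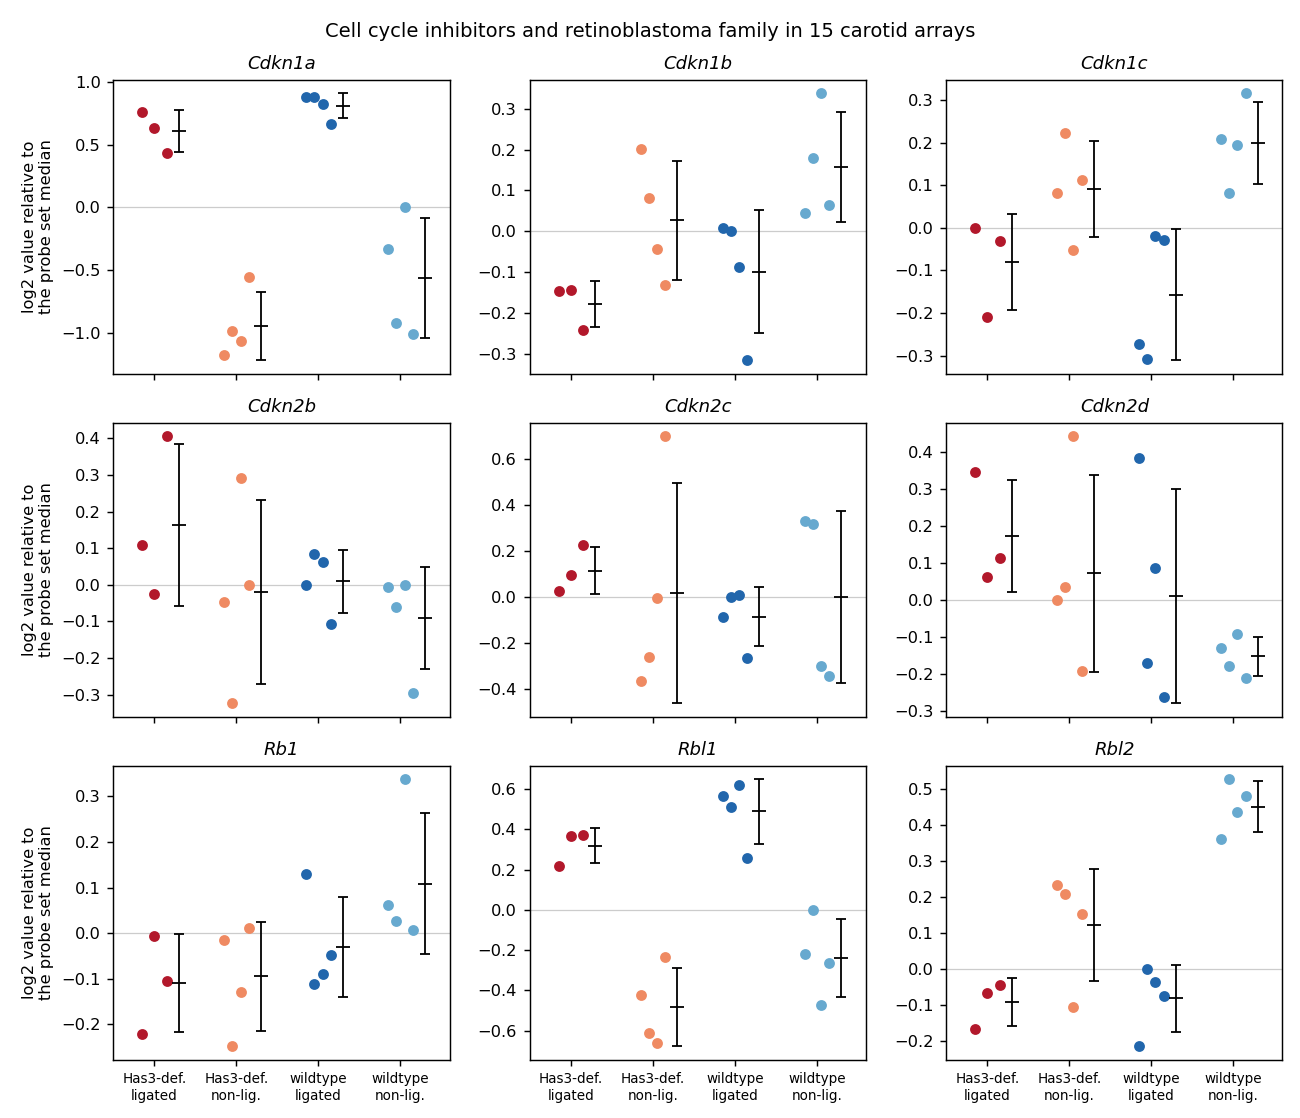
Log2 values of the 9 members relative to the probe set median (y axis) in 4 groups of arrays (x axis); each point is 1 array, and the bar beside the points gives the mean and standard deviation. All ligated arrays lie above all non-ligated arrays for Cdkn1a and Rbl1, and for Rbl2 the wildtype non-ligated arrays lie above all others.

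Cdkn1a, which binds cyclin and kinase complexes and halts cells before DNA synthesis, had the largest change of the 9. Its values were 0.76, 0.63 and 0.43 in Has3-deficient ligated arteries, against -1.18, -0.98, -1.06 and -0.55 in Has3-deficient non-ligated arteries. In wildtype they were 0.88, 0.87, 0.82 and 0.67 in ligated arteries, against -0.33, -0.92, 0.00 and -1.004 in non-ligated arteries. The groups do not overlap in either genotype, and the wildtype non-ligated arrays were spread the most (SD 0.48). Cdkn1a rose by 1.55 ± 0.21 log2 units (± standard error here and below; 2.93-fold, adjusted p = 0.000111) in Has3-deficient arteries. In wildtype arteries it rose by 1.37 ± 0.19 (2.59-fold, adjusted p = 9.55e-05).

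Rbl1, also called p107, had values of 0.22, 0.37 and 0.37 in Has3-deficient ligated arteries, against -0.42, -0.61, -0.66 and -0.23 in Has3-deficient non-ligated arteries. In wildtype they were 0.57, 0.51, 0.62 and 0.26 in ligated arteries, against -0.22, 0.00, -0.47 and -0.27 in non-ligated arteries. Again no ligated array reached down to the highest non-ligated one. The rise was 0.80 ± 0.12 (1.74-fold, adjusted p = 0.000331) in Has3-deficient arteries and 0.73 ± 0.11 (1.66-fold, adjusted p = 0.000221) in wildtype arteries.

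Rbl2, also called p130, was lower after ligation in wildtype. Its values were -0.17, -0.066 and -0.043 in Has3-deficient ligated arteries, against 0.23, 0.21, -0.10 and 0.15 in Has3-deficient non-ligated arteries. In wildtype arteries they were -0.21, 0.00, -0.036 and -0.073 after ligation, against 0.36, 0.53, 0.44 and 0.48 without it. The wildtype groups do not overlap, while Has3-deficient non-ligated array 3 lies among the ligated arrays. In Has3-deficient arteries the difference was -0.21 ± 0.08 log2 units (adjusted p = 0.0891) and did not pass. In wildtype arteries Rbl2 fell by 0.53 ± 0.08 (1.45-fold, adjusted p = 9.7e-05). In Has3-deficient arteries Rbl2 passed in limma in 2 of 25 alternatives. These were without Has3-deficient non-ligated array 3 (-0.29, adjusted p = 0.00773) and with array weights (-0.25, adjusted p = 0.017). Array 3 has the highest neuronal marker mean. With all arrays high in those markers left out, the Rbl2 difference in Has3-deficient arteries was -0.30, against 1 remaining non-ligated array. The part of neighbouring tissue in the Rbl2 difference was not tested.

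Rb1, the founding member of the family, did not pass. Its mean value was -0.11 ± 0.11 (SD, n = 3) in Has3-deficient ligated and -0.095 ± 0.12 (SD, n = 4) in Has3-deficient non-ligated arteries. In wildtype it was -0.029 ± 0.11 in ligated and 0.11 ± 0.15 in non-ligated arteries (SD, n = 4 each). The arrays of ligated and non-ligated arteries overlapped in both genotypes. The differences were -0.015 ± 0.09 (adjusted p = 0.943) in Has3-deficient and -0.14 ± 0.09 (adjusted p = 0.294) in wildtype arteries. Its probe sets differed in direction: after ligation probe set 17308568 was at -0.21 in Has3-deficient and -0.31 in wildtype arteries, and probe set 17308570 at 0.18 in Has3-deficient and 0.030 in wildtype arteries, none of which passed. A further 2 probe sets carry the symbols of both Rb1 and Lpar6 and were not used. Probe set 17301886 lay between 0.036 and 0.29 in Has3-deficient ligated arrays, against -0.92 to 0.00 in Has3-deficient non-ligated arrays. In wildtype it lay between -0.058 and 0.46 in ligated arrays, against -0.45 to 0.32 in non-ligated arrays. Probe set 17308600 overlapped in both genotypes. Which of the genes these probe sets follow was not tested.

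**Figure D2:**
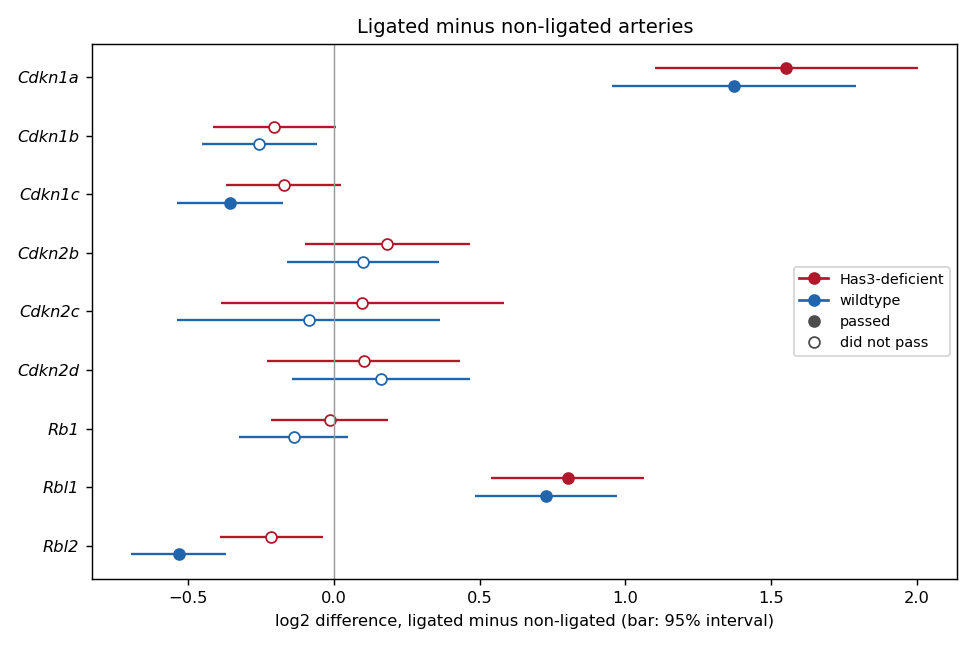
Log2 difference of ligated minus non-ligated arteries (x axis) for each member (y axis) in Has3-deficient and wildtype mice; bars are 95% intervals from limma, and filled points passed at an adjusted p under 0.05. Cdkn1a and Rbl1 lie to the right of 0 in both genotypes, and Rbl2 and Cdkn1c are filled on the left in wildtype only, a difference between genotypes that itself did not pass.

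Among the Cip/Kip inhibitors other than Cdkn1a, Cdkn1c (p57), known for its role in leaving the cycle during development, had values of 0.00, -0.21 and -0.030 in Has3-deficient ligated arteries. Those of Has3-deficient non-ligated arteries were 0.082, 0.22, -0.051 and 0.11. In wildtype they were -0.27, -0.31, -0.020 and -0.027 in ligated arteries, against 0.21, 0.082, 0.19 and 0.32 in non-ligated arteries. The Has3-deficient groups overlap and the wildtype groups do not. Cdkn1c was at -0.17 ± 0.09 log2 units (adjusted p = 0.242) in Has3-deficient arteries, and fell by 0.36 ± 0.09 (1.28-fold, adjusted p = 0.00551) in wildtype arteries.

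Cdkn1b (p27), which is controlled largely through protein turnover by Skp2, stood at the edge of the threshold. Its values were -0.15, -0.14 and -0.24 in Has3-deficient ligated arteries, against 0.20, 0.082, -0.043 and -0.13 in Has3-deficient non-ligated arteries. In wildtype they were 0.0074, 0.00, -0.088 and -0.32 in ligated arteries, against 0.044, 0.18, 0.34 and 0.064 in non-ligated arteries. No ligated array reached the lowest non-ligated one in either genotype, yet the gaps were small beside the spread. The differences were -0.21 ± 0.10 (adjusted p = 0.186) in Has3-deficient and -0.26 ± 0.09 (adjusted p = 0.051) in wildtype arteries. In wildtype Cdkn1b passed in 8 of 26 alternative settings. Arrays of 5 members did not overlap between ligated and non-ligated wildtype arteries, 2 above and 3 below, where 30.0% of all genes did not overlap (14.0% above and 16.0% below). In Has3-deficient arteries this held for 3 members, 2 above and 1 below, beside 26.3% of all genes (13.0% above and 13.4% below).

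The INK4 inhibitors among the members did not pass, and their arrays overlapped between ligated and non-ligated arteries in both genotypes. Cdkn2b (p15), known as a target of TGF-beta, was at 0.18 ± 0.13 in Has3-deficient and 0.10 ± 0.12 in wildtype arteries. Cdkn2c (p18) was at 0.098 ± 0.23 in Has3-deficient and -0.086 ± 0.21 in wildtype arteries, and Cdkn2d (p19) at 0.10 ± 0.15 in Has3-deficient and 0.16 ± 0.14 in wildtype arteries. Their 95% intervals are wide. That of Cdkn2c runs from -0.39 to 0.58 in Has3-deficient and from -0.54 to 0.36 in wildtype arteries. Of the INK4 inhibitors Cdkn2c varied most within the non-ligated groups. Its values there were -0.36, -0.26, -0.0056 and 0.70 in Has3-deficient arteries and 0.33, 0.32, -0.30 and -0.34 in wildtype arteries.

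In the order of the 4 group means, Cdkn1a and Rbl1 ran wildtype ligated, Has3-deficient ligated, wildtype non-ligated and Has3-deficient non-ligated from high to low. Neighbours in that order overlapped except at the step between ligated and non-ligated groups, which measured 1.17 for Cdkn1a and 0.56 for Rbl1. Rbl2 ran wildtype non-ligated, Has3-deficient non-ligated, wildtype ligated and Has3-deficient ligated. Only its first step, of 0.33, separated groups without overlap. For the other 6 members all neighbouring groups overlapped.

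No member passed between genotypes. In ligated arteries the differences of Has3-deficient minus wildtype ran from -0.20 (Cdkn1a) to 0.20 (Cdkn2c), where 0 of 22180 genes passed in limma, 0.0% of those tested, and 0 members and 910 genes had an unadjusted p under 0.05. The 95% interval was -0.65 to 0.25 for Cdkn1a, -0.43 to 0.095 for Rbl1, -0.19 to 0.16 for Rbl2 and -0.12 to 0.27 for Cdkn1c. The arrays of Cdkn2c did not overlap, with 0.024, 0.096 and 0.22 in Has3-deficient ligated arteries, against -0.088, 0.00, 0.011 and -0.26 in wildtype ligated arteries, where 6.9% of all genes did not overlap (3.55% above and 3.35% below).

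In non-ligated arteries all 3 pocket proteins and the 3 Cip/Kip inhibitors had negative differences and the 3 INK4 inhibitors positive ones, and none passed, where 0.0857% of genes passed (0.00902% higher and 0.0766% lower). In limma 2 members, Rbl2 and Rb1, and 2979 genes had an unadjusted p under 0.05. Rbl2 came closest, at -0.33 ± 0.08 (95% interval -0.49 to -0.17, adjusted p = 0.0886), rank 175 of 22180 genes by p. The values listed above show that each of the 4 Has3-deficient arrays lay below each of the 4 wildtype arrays, where 6.22% of all genes did not overlap (2.4% above and 3.82% below). Rbl2 passed in limma in 1 of 25 alternatives, with quantile normalization (-0.44, adjusted p = 0.0416). Without Has3-deficient array 3, the lowest, it was at -0.25 (adjusted p = 0.131). With only the 2 groups compared its adjusted p was 0.267. The neuronal marker mean was above 1 in Has3-deficient arrays 1, 3 and 4 and in wildtype array 2. With those arrays left out the Rbl2 difference was -0.22, where 1 Has3-deficient array then remains. The mean over 10 markers of adventitial fibroblasts, none of which passed between genotypes, lay at -0.13 to -0.065 in Has3-deficient arrays, against 0.11 to 0.30 in wildtype arrays. That mean was not tested, and its part and that of the neuronal markers in the Rbl2 difference were not tested. Rb1 was at -0.20 ± 0.09 (adjusted p = 0.334), Rbl1 at -0.24 ± 0.11 (adjusted p = 0.373) and Cdkn1a at -0.38 ± 0.19 (adjusted p = 0.421).

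**Figure D3:**
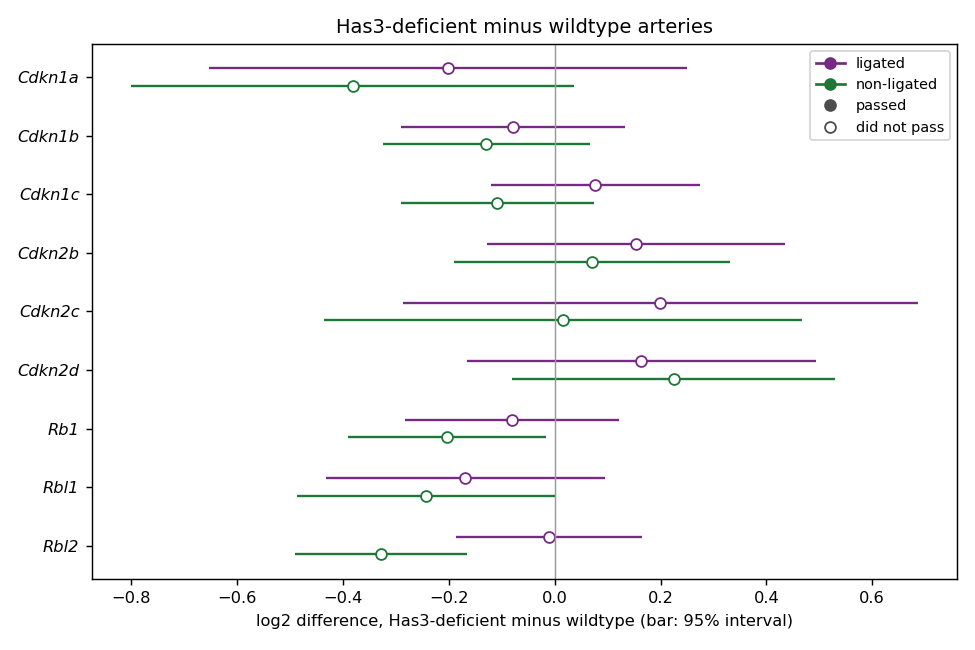
Log2 difference of Has3-deficient minus wildtype arteries (x axis) for each member (y axis) in ligated and non-ligated arteries; bars are 95% intervals from limma, and open points did not pass. All points are open, and the Rbl2 interval in non-ligated arteries, from -0.49 to -0.17, lies apart from 0.

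The ligation response itself did not pass as different between genotypes for any member, where 0 of 22180 genes, or 0.0%, passed in limma and 1802 had an unadjusted p under 0.05. Response differences, Has3-deficient minus wildtype, ran from -0.061 (Cdkn2d) to 0.32 (Rbl2). For Rbl2 the difference was 0.32 ± 0.11 (95% interval 0.079 to 0.56, adjusted p = 0.518), the only member with an unadjusted p under 0.05. For Cdkn1c it was 0.19 ± 0.13 (adjusted p = 0.734), so its call in wildtype alone is not a shown difference between genotypes. These comparisons share arrays with those above, and so their values are not independent.

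Of 14 cyclins, kinases and subunits of the kinase-activating complex (Ccnh, Cdk7 and Mnat1, which activate the kinases the inhibitors bind), 6 rose and 0 fell in Has3-deficient arteries (up to 2 fell over the alternatives), and 8 rose and 2 fell in wildtype arteries, with median changes of 0.28 in Has3-deficient and 0.37 in wildtype arteries. No gene of this or the other pathway lists passed between genotypes or for a different response, so a call in wildtype alone is no shown difference. The counts of each list stand beside the share of all genes that passed after ligation. That share was 18.3% in Has3-deficient arteries (10.2% higher and 8.08% lower) and 27.8% in wildtype arteries (13.2% higher and 14.6% lower). Cdk6 and Cdk4, the partners of the INK4 inhibitors, both rose. Cdk6 rose by 0.89 ± 0.13 in Has3-deficient and 0.93 ± 0.12 in wildtype arteries, and Cdk4 by 0.62 ± 0.10 in Has3-deficient and 0.44 ± 0.09 in wildtype arteries. Cdk2, held by the Cip/Kip inhibitors, rose by 0.37 ± 0.08 in Has3-deficient and 0.39 ± 0.07 in wildtype arteries. The D-type cyclins, partners of Cdk4 and Cdk6 in the G1 phase, differed in direction. Ccnd1 did not pass in Has3-deficient arteries (0.32 ± 0.14, adjusted p = 0.141) and rose by 0.52 ± 0.13 in wildtype arteries (adjusted p = 0.00779). Ccnd2, named after its values were seen, was at -0.53 without passing in Has3-deficient arteries and fell by 0.71 in wildtype arteries, and Ccnd3, also named afterwards, passed in neither (-0.13 in Has3-deficient and -0.18 in wildtype arteries). Mnat1 was the other gene that fell in wildtype. The mitotic cyclins Ccna2 and Ccnb2 and the kinase Cdk1 rose most of the list, with Ccna2 at 2.09 ± 0.24 in Has3-deficient and 2.06 ± 0.22 in wildtype arteries.

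Pocket proteins bind E2f1 to E2f5, while E2f6, E2f7 and E2f8 repress without them. Of 10 E2F and DP genes 3 rose and 2 fell in Has3-deficient arteries, and 6 rose and 3 fell in wildtype arteries. Of the pocket-bound E2f1 to E2f5, E2f1 alone passed in Has3-deficient arteries, where the 2 genes that fell were E2f6 and the DP gene Tfdp2. Without Has3-deficient ligated array 3, 1 fell there. E2f8, a repressor made late in the S phase, rose by 1.54 ± 0.11 in Has3-deficient and 1.56 ± 0.11 in wildtype arteries, and E2f7, its close relative, by 0.41 ± 0.09 in Has3-deficient and 0.64 ± 0.08 in wildtype arteries. The activator E2f1 rose by 0.45 ± 0.12 in Has3-deficient and 0.69 ± 0.11 in wildtype arteries. E2f3 was at 0.37 ± 0.13 without passing in Has3-deficient arteries and rose by 0.50 ± 0.12 in wildtype arteries. E2f4, the usual partner of Rbl2, was at 0.21 ± 0.11 without passing in Has3-deficient arteries and rose by 0.32 ± 0.11 in wildtype arteries. E2f6 fell by 0.48 ± 0.09 in Has3-deficient and by 0.58 ± 0.09 in wildtype arteries, and the DP partner Tfdp2 fell by 0.53 ± 0.13 in Has3-deficient and by 0.89 ± 0.12 in wildtype arteries. E2f5 was at -0.17 ± 0.09 in Has3-deficient arteries, not passed, and fell by 0.37 ± 0.08 in wildtype arteries, and E2f2 did not pass in either genotype (0.22 ± 0.16 in Has3-deficient and 0.40 ± 0.15 in wildtype arteries).

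Of 8 DREAM and MuvB partners, 2 rose and 1 fell in Has3-deficient and 3 rose and 2 fell in wildtype arteries. Among all genes 18.3% passed in Has3-deficient and 27.8% in wildtype arteries. Foxm1, which takes the place of the repressor in dividing cells, rose by 0.69 ± 0.12 in Has3-deficient and 0.74 ± 0.11 in wildtype arteries. Mybl2 was at 0.091 ± 0.07 in Has3-deficient arteries, not passed, and rose by 0.31 ± 0.07 in wildtype arteries. Rbbp4 fell by 0.42 ± 0.10 in Has3-deficient and by 0.58 ± 0.09 in wildtype arteries. Lin52 was at -0.40 ± 0.14 in Has3-deficient arteries, not passed, and fell by 0.66 ± 0.13 in wildtype arteries. Lin9 did not pass (0.29 ± 0.12 in Has3-deficient and 0.14 ± 0.11 in wildtype arteries). In Has3-deficient arteries 1 to 3 rose and 0 to 2 fell over the alternatives, most of which left 1 that rose, and without Has3-deficient ligated array 3 the total was 1.

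Genes of the S phase with known E2F sites rose almost throughout. Of 19 measured, 15 rose in Has3-deficient and 18 in wildtype arteries and none fell, with medians of 0.52 in Has3-deficient and 0.48 in wildtype arteries. Cdt1, which licenses origins of replication, rose by 0.82 ± 0.09 in Has3-deficient and 0.89 ± 0.08 in wildtype arteries, and Tk1 by 0.94 ± 0.12 in Has3-deficient and 0.99 ± 0.11 in wildtype arteries. All 17 mitosis genes rose in both genotypes, with medians of 1.20 in Has3-deficient and 1.37 in wildtype arteries. Mki67 was among them, at 2.54 ± 0.18 in Has3-deficient and 2.45 ± 0.17 in wildtype arteries. With the 4 arrays high in neuronal markers left out, 9 of the 19 S phase genes rose in Has3-deficient arteries, where 1 non-ligated array then remains.

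**Figure D4:**
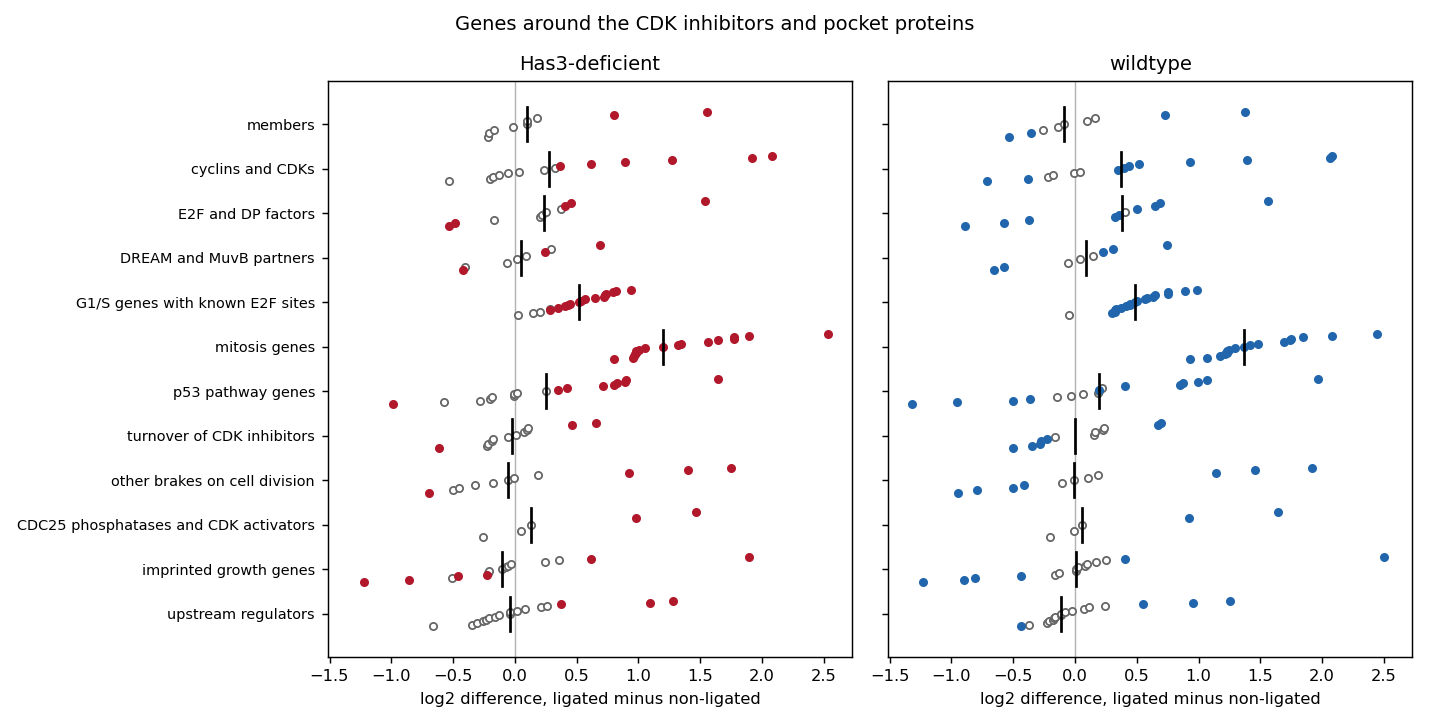
Log2 difference of ligated minus non-ligated arteries (x axis) for the members and 11 lists of related genes (y axis) in Has3-deficient (left) and wildtype (right) mice; each point is 1 gene, filled where it passed in limma, and the vertical tick is the median of the list. The mitosis genes lie highest, with medians of 1.20 in Has3-deficient and 1.37 in wildtype arteries, and the lists of inhibitors and their regulators spread to both sides of 0.

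Genes linked to p53 went both ways. Of 17 measured, 8 rose and 1 fell in Has3-deficient and 7 rose and 4 fell in wildtype arteries. Their medians were 0.25 in Has3-deficient and 0.19 in wildtype arteries. Among all genes 18.3% passed in Has3-deficient and 27.8% in wildtype arteries. Plk2 rose by 1.64 ± 0.23 in Has3-deficient and 1.96 ± 0.21 in wildtype arteries, Pmaip1, which promotes cell death, by 0.81 ± 0.17 in Has3-deficient and 1.07 ± 0.15 in wildtype arteries, and Mdm2, the ligase that degrades p53, by 0.71 ± 0.12 in Has3-deficient and 0.41 ± 0.11 in wildtype arteries. Perp fell by 0.99 ± 0.15 in Has3-deficient and by 1.32 ± 0.14 in wildtype arteries. In Has3-deficient arteries 5 to 9 rose and 1 to 3 fell over the alternatives. The 5 came without the arrays high in neuronal markers, and 3 fell there and without Has3-deficient non-ligated array 3, and 2 without Has3-deficient ligated array 5. Trp53 was not analysed here.

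Of 12 genes that tag the inhibitors for breakdown, 2 rose and 1 fell in Has3-deficient and 2 rose and 5 fell in wildtype arteries. Among all genes 18.3% passed in Has3-deficient and 27.8% in wildtype arteries. Skp2, the receptor that marks Cdkn1b protein, rose by 0.46 ± 0.12 in Has3-deficient and 0.67 ± 0.11 in wildtype arteries, and Dtl, which marks Cdkn1a protein in the S phase, by 0.65 ± 0.13 in Has3-deficient and 0.70 ± 0.12 in wildtype arteries. Rnf123, part of another ligase for Cdkn1b, fell by 0.62 ± 0.10 in Has3-deficient and by 0.50 ± 0.09 in wildtype arteries. Cul1 was at -0.18 ± 0.07 in Has3-deficient arteries, not passed, and fell by 0.28 ± 0.06 in wildtype arteries. Over the alternatives 1 to 2 rose and 1 to 3 fell in Has3-deficient arteries. In wildtype arteries 3 fell without ligated array 3 or 4 or non-ligated array 2. Protein was not measured.

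Of 17 genes that act on transcription of the inhibitors, 3 rose and 0 fell in Has3-deficient and 3 rose and 1 fell in wildtype arteries. These shares are no higher than the 18.3% of all genes that passed in Has3-deficient and the 27.8% in wildtype arteries. Over the alternatives up to 1 fell in Has3-deficient and up to 2 in wildtype arteries. Tgfb1, which induces Cdkn2b in epithelial cells, rose by 1.28 ± 0.15 in Has3-deficient and 1.25 ± 0.14 in wildtype arteries, while Cdkn2b did not pass. Myc, a repressor of several inhibitors, rose by 1.09 ± 0.17 in Has3-deficient and 0.96 ± 0.16 in wildtype arteries, and Ezh2 by 0.38 ± 0.09 in Has3-deficient and 0.55 ± 0.08 in wildtype arteries. Foxo1, which can induce Cdkn1b and Rbl2, did not pass in Has3-deficient arteries (-0.24 ± 0.10) and fell by 0.44 ± 0.10 in wildtype arteries.

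Of 15 imprinted growth genes, the class to which Cdkn1c belongs, 2 rose and 4 fell in each genotype. Beside this count and those of the lists below, 18.3% of all genes passed in Has3-deficient and 27.8% in wildtype arteries. Igf2, the growth factor, fell by 0.85 ± 0.11 in Has3-deficient and by 0.81 ± 0.10 in wildtype arteries, Peg3 by 1.22 ± 0.17 in Has3-deficient and by 1.23 ± 0.16 in wildtype arteries, and Sgce by 0.46 ± 0.09 in Has3-deficient and by 0.90 ± 0.09 in wildtype arteries. Grb10, a brake on growth factor receptors, rose by 0.62 ± 0.08 in Has3-deficient and 0.40 ± 0.07 in wildtype arteries. Mest, named after its values were seen, was the other gene that rose, by 1.90 in Has3-deficient and 2.50 in wildtype arteries. In Has3-deficient arteries 1 rose without ligated array 3 or 6, and 2 fell without the arrays high in neuronal markers. Of 11 other brakes on division 3 rose and 1 fell in Has3-deficient and 3 rose and 4 fell in wildtype arteries. In Has3-deficient arteries 1 to 3 rose, the lowest without the arrays high in neuronal markers, and 0 to 2 fell, with 0 without ligated array 5 and 2 without non-ligated array 3. In wildtype arteries 2 fell with quantile normalization. Gadd45b rose by 1.75 ± 0.28 in Has3-deficient and 1.92 ± 0.26 in wildtype arteries, Btg1 by 1.40 ± 0.14 in Has3-deficient and 1.46 ± 0.13 in wildtype arteries and Cdkn3, a phosphatase of the kinases, by 0.92 ± 0.16 in Has3-deficient and 1.14 ± 0.15 in wildtype arteries. Cables1 fell by 0.70 ± 0.17 in Has3-deficient and by 0.79 ± 0.16 in wildtype arteries. Of 5 Cdc25 phosphatases and kinase activators 2 rose in each genotype, Cks2 (1.46 ± 0.18 in Has3-deficient and 1.64 ± 0.16 in wildtype arteries) and Cdc25c (0.98 ± 0.15 in Has3-deficient and 0.92 ± 0.14 in wildtype arteries).

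Cell type markers moved with ligation as well, where 18.3% of all genes passed in Has3-deficient and 27.8% in wildtype arteries. All 10 macrophage markers rose in both genotypes, and their mean lay between 1.98 and 2.16 in Has3-deficient ligated arrays, against -1.25 to -0.17 in Has3-deficient non-ligated arrays. In wildtype it lay between 2.02 and 2.32 in ligated arrays, against -0.71 to -0.20 in non-ligated arrays. Of 10 neutrophil markers 9 rose in each genotype, and 1 fell in Has3-deficient arteries. Of 10 contractile smooth muscle markers 10 fell in Has3-deficient and 9 in wildtype arteries. Their mean lay between -0.54 and -0.36 in Has3-deficient ligated arrays, against -0.029 to 0.52 in Has3-deficient non-ligated arrays, and between -0.89 and -0.40 in wildtype ligated arrays, against 0.19 to 0.46 in wildtype non-ligated arrays. The 10 endothelial markers went both ways, 3 higher and 3 lower in Has3-deficient and 4 higher and 4 lower in wildtype arteries. Of T and NK cell markers 3 of 9 rose in Has3-deficient and 5 of 9 in wildtype arteries, and 0 of 5 B cell markers passed in either. The T and NK count in Has3-deficient arteries ran from 0 to 4 over the alternatives, with 0 without ligated array 5 or 6 or non-ligated array 1 or 2. Of 10 adventitial fibroblast markers 3 rose and 3 fell in Has3-deficient and 1 rose and 5 fell in wildtype arteries, and of 9 fat markers 1 fell in Has3-deficient and 4 in wildtype arteries. Of 10 skeletal muscle markers 1 fell in each genotype, of 5 Schwann cell markers 1 rose in each and 1 fell in wildtype, and no neuron or chromaffin marker passed. Endothelial, fibroblast, fat, Schwann cell, neuronal, B cell and skeletal muscle counts also moved by over 1.5 times, or from 0 to 1 or more, in some alternatives. So did the neutrophil count, but only for the 1 marker that fell, which did not pass in some alternatives. Counts of macrophage and contractile smooth muscle markers did not move so. Which of these cells carried the changes of the members was not tested, and since values are centred, no marker can be said to be absent.

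Over the 15 arrays, the genes whose pattern was most like that of Cdkn1a by Pearson correlation were Ceacam1 (r = 0.988), Ccl6 (0.981) and Myd88 (0.979). For Rbl1 they were Jak1 (0.985), Tut7 (0.977) and Zc3hav1 (0.971), and for Rbl2 Xrn1 (0.967), Tjp1 (0.966) and Ccdc82 (0.961). Cdkn1c was closest to Phkg1 (0.931), Fgl2 (0.909) and Zfp672 (0.907), Cdkn1b to Hs3st1 (0.892), Gm10033 (0.885) and Usp49 (0.883), and Rb1 to Pttg1ip (0.892), Gm14762 (0.87) and Thoc1 (0.843). Cdkn2c was closest to Abcd2 (0.905) and to Tpsb2 (0.874) and Cma1 (0.866), which encode proteases of mast cells. Cdkn2b was closest to Prr5 (0.836), Nme1 (0.82) and Mir450-2 (0.807), and Cdkn2d to Alppl2 (0.831), Tnni3 (0.811) and Trappc6a (0.799). These are descriptions: the arrays of a gene pair share tissue and group, and for genes that respond to ligation the 2 artery states set most of the correlation.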

How the data were processed

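Total RNA of carotid arteries was amplified from 100 ng and hybridised to 1-colour arrays, per the labels' protocols. For 33793 probe sets and 15 arrays the authors deposited log2 values, centred so that every probe set has a median of 0. How they were normalized, with what software and on which annotation build is not given in the sources used here. Symbols were taken from the platform annotation given with the data, updated through gene IDs of RefSeq on GRCm38.p6. Of the probe sets 23521 carried 1 symbol, and means per gene gave 22180 genes.

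A single fit over the 4 groups (limma 3.58.1, R 4.3.3, lmFit then eBayes, 11 residual and 2.69 prior degrees of freedom) gave each test. It was also run on simulated data with independent noise in each gene. Such data lack the tissue differences between these arrays, so that run does not vouch for the calls. No filter on low values was possible, since levels are lost by centring. The members, gene lists and tests were chosen with earlier results of these data known. Named genes were all members, up to 4 passing genes per list by lowest p in wildtype ligation, a short fixed set, and the 3 genes most correlated with each member. Pathway and marker lists held 262 genes, 243 of them measured. The number of arrays limits the precision. Alternatives were quantile normalization, a common array median, array weights, a robust prior, only the groups compared, another choice of probe set, a replicate block and leaving out arrays.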

Additional observations from a re-analysis of the deposited data

Results flagged for a closer look

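One of 27 groups of 4 arrays had an array far from the others, where chance gives about 1 in 20. Rb1 was at 0.34 in wildtype non-ligated array 3, against 0.062, 0.027 and 0.0070 in the other wildtype non-ligated arrays. Of its probe sets, 17308568 was at 0.61 in that array and 17308570 at 0.066.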

How the results depend on the processing

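Calls for Cdkn1a and Rbl1 after ligation held in all 25 alternatives in Has3-deficient and all 26 in wildtype arteries, and those for Rbl2 and Cdkn1c in all 26 in wildtype. Many of these alternatives could not move the difference. A robust prior, the groups compared alone and leaving out arrays of the other genotype changed only its spread and p-value. Each of these genes has 1 probe set, so another choice of probe set used the same values. With arrays left out in turn, 2 to 3 members passed for ligation in Has3-deficient arteries, 4 to 5 in wildtype arteries, and 0 to 0 between genotypes and for the interaction. Between genotypes in non-ligated arteries 1 member, Rbl2, passed with quantile normalization; the cause was not tested. A further 10 gained calls were those of Cdkn1b in wildtype (8, adjusted p from 0.0294 to 0.158 over its alternatives) and of Rbl2 in Has3-deficient arteries (2), and no call was lost or reversed. Of 960 values that passed neither way, 34 changed sign. Replicate numbers were no shown pairing: same-numbered wildtype arrays correlated from 0.028 to 0.164 in their deviations, 2 of 4 pairs over 0.1, and 2 of 4 ligated arrays correlated best with their own number, and Has3-deficient arrays share 1 number. With the replicate block as a random effect 5 members passed for ligation in wildtype, with a fixed replicate block 4, and in the other comparisons the block changed no count. Leaving out arrays high in neuronal or fat markers (the first leaves 1 Has3-deficient non-ligated array, assumed to vary like the other groups, so it says little of stability) was added after the data were seen and left 2 passing members in Has3-deficient arteries either way, and in wildtype arteries 4 without the neuronal and 5 without the fat arrays.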
